A study of Mus musculus with 14 samples.

Results

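The 10 genes described here code for secreted proteins that sit in the extracellular matrix or act through it. Their RNA was followed in mouse fibroblasts and livers that lost the telomere-binding protein TRF2. They were *Postn*, *Abi3bp*, *Lrrc17*, *Ptn*, *Mdk*, *Fndc1*, *Sparc*, *Thbs1*, *Thbs2* and *Tnc*, which are 10 of the 54532 genes in the tables. They were found by gene symbol and joined between the tissues by Ensembl gene ID. Several were chosen by their read counts, which were much lower in senescent than in control fibroblasts, so the fibroblast values of the 10 genes are given as a description, with no test, and the livers were the comparison that was tested.

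RNA was sequenced from 3 cultures of senescent fibroblasts and 3 of control fibroblasts, and from 4 *Trf2*-deleted and 4 control livers. The fibroblasts (iMEFs) came from mouse embryos and were immortalized with the SV40 large T antigen. Both iMEF groups were Trf2F/F;Rosa-CreER, with *Trf2* alleles that Cre can cut and a Cre that 4-hydroxytamoxifen (4HT) activates. Senescent iMEFs had been exposed to 4HT until collection on day 7, and control iMEFs to vehicle alone. With no library of 4HT-treated cells that kept *Trf2*, the deletion cannot be told apart from 4HT itself or from active Cre. *Trf2*-deleted livers were from Trf2F/F;Rosa-mTmG mice given AAV8-Tbg-Cre, a liver-directed virus, and labelled as 6 weeks. Control livers were from Rosa-mTmG mice given the same virus, which have no floxed *Trf2*. The TBG promoter drives Cre in hepatocytes and not in the stellate cells, fibroblasts or endothelium of the liver. The sources used here give no age for the mice. A whole liver is a mixture, and fewer cells of a type cannot be told apart from less RNA per cell.

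Matricellular proteins are secreted into the matrix without being its main building material. They bind collagens, fibronectin, growth factors and cell-surface receptors, and they modulate adhesion, migration and growth factor signals. Many are plentiful in embryos and during wound repair and scarce in resting adult tissue. In the liver, hepatic stellate cells, portal fibroblasts and endothelial cells are the better known sources, and several members are induced when the liver scars.

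The bases ahead of the start site are shown for the members that were lowest in senescent iMEFs relative to controls, those with a log2 fold change under -2. RefSeq promoter entries of GRCm38.p6 were found for 7 of the 10 members, and *Abi3bp*, *Mdk* and *Thbs1* were not matched. Each line gives the 250 bases before the start, 5′ to 3′ in the direction of the gene, and capitals mark the letters TATAAA on either strand.
Postn, chr3:54360857-54361106, plus strand: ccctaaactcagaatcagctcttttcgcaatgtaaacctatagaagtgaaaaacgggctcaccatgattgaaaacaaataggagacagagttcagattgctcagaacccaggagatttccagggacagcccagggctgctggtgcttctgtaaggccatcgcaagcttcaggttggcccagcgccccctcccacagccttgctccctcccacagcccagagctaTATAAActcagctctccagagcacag
Lrrc17, chr5:21543277-21543526, plus strand: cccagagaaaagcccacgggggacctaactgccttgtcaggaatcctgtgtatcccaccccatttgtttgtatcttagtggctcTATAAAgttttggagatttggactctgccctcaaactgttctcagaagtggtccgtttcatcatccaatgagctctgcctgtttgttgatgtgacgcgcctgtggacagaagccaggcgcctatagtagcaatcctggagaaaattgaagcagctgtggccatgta
Ptn, chr6:36810180-36810429, minus strand: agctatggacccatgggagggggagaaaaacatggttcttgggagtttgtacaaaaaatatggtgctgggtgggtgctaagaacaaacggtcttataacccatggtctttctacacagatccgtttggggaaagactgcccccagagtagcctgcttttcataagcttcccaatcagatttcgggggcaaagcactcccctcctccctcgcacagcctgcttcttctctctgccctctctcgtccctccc
Fndc1, chr17:7827303-7827552, minus strand: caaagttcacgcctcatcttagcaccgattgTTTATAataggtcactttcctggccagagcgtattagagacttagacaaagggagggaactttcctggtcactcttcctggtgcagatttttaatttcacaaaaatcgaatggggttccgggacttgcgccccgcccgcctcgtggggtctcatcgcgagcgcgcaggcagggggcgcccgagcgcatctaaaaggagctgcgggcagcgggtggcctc
The sequence TATAAA, the core of a TATA box, lay 26 bases before the *Postn* start in the entry shown. In *Lrrc17* it was 166 bases before the start, and in *Fndc1* it lay on the opposite strand, 219 bases before the start. Among members with smaller differences in iMEFs, *Thbs2* had it on the opposite strand at 126 bases and *Tnc* at 126 bases in 1 entry and 205 in the other, which are the same letters. The *Ptn* window did not contain it, and nor did the window of another *Postn* entry. That entry, whose start lies 1842 bases from the annotated gene start, is not shown. Of all 32851 promoters, 12.4% held TATAAA in the same window on either strand. The letters GGAATG (bound by TEAD factors), TGANTCA (AP-1) and GTCTAGAC (SMAD) were searched on both strands as well and were in none of the windows of the 7 members, while 12.6%, 6.75% and 0.167% of all promoters held them. The *Sparc* entry starts 3103 bases from the annotated gene start, so its window lies inside the annotated gene and not ahead of it. A match, or the lack of one, is a description of the letters only.

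Libraries held 15364450 to 20177401 reads in genes. *Terf2*, the gene of TRF2, averaged 0.25 ± 0.0482 CPM (reads per 1000000 reads, scaled by TMM factors) in senescent iMEFs and 38.3 ± 0.775 CPM in control iMEFs (SD, n = 3 each), and 3.82 ± 1.12 CPM in *Trf2*-deleted livers and 12.6 ± 1.35 CPM in control livers (SD, n = 4 each). *Cdkn1a*, a cell cycle inhibitor, had log2 fold changes of 2.15 in iMEFs and 2.43 in livers, with adjusted p of 8.88e-09 and 0.0293 from edgeR's quasi-likelihood test. Hepatocyte markers summed to 79112 to 108848 CPM in the livers, and 7 of 8 had no read in iMEFs. Senescent iMEF replicate 3 stood apart from the other senescent libraries, and control liver replicate 2 had the highest sums of the control livers for fibroblast, portal fibroblast and mesothelium, and cholangiocyte markers. Members' values are given with and without these libraries where they stood out.

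All 10 members were lower in senescent iMEFs than in control iMEFs, and the median of their log2 fold changes was -1.69, against 0.00279 over all 13561 tested genes. The fit over all genes put all 10 on the lower side of an adjusted p of 0.05, as it did 21.2% of tested genes. In either direction 39.8% passed. *Tnc* was not called with RLE in place of TMM factors, nor without control replicate 1, 2 or 3 or senescent replicate 1 or 2. Each of these fits left 9 members called. All senescent libraries lay below all controls for 9 of the 10, as they did for 26.4% of all tested genes. These counts are no test of the 10 genes and nothing is read from them, since the same contrast helped to choose the genes. The sizes covered a wide range, and 5 members had log2 fold changes under -2 while the other 5 lay between -1.15 and -0.31.

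**Figure D1:**
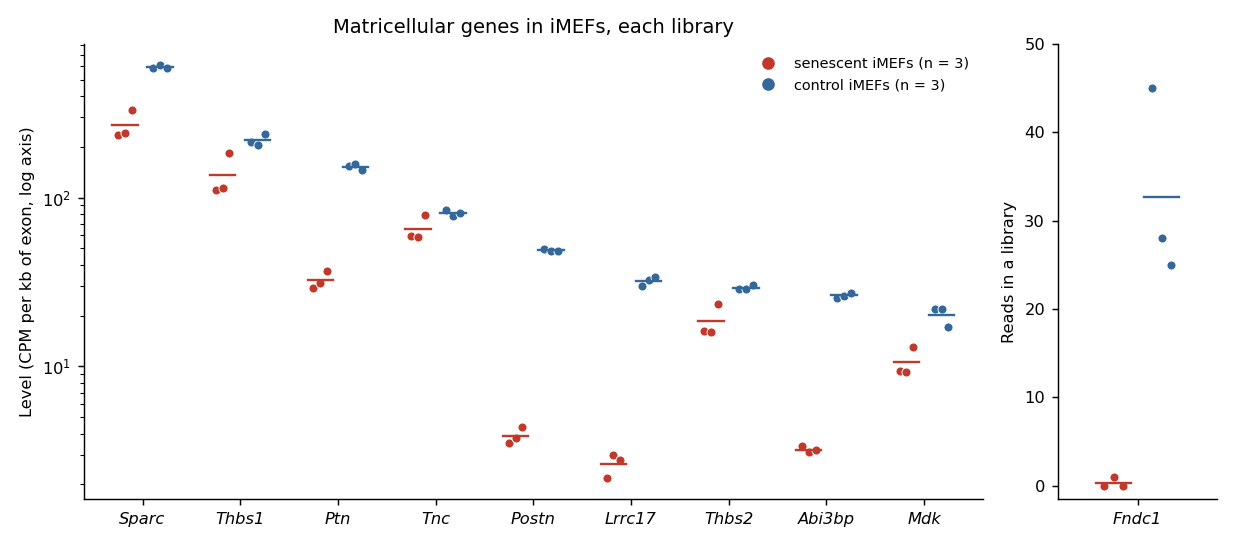
Level of each member in every iMEF library, in CPM per kb of exon on a log axis, with *Fndc1* at the right in reads per library. Red points are senescent iMEFs, blue points control iMEFs (n = 3 each), and lines are means. The groups overlap for *Tnc*, and *Postn*, *Lrrc17*, *Abi3bp* and *Ptn* show the widest gaps.

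*Postn* encodes periostin, which binds collagen and fibronectin and helps to bring the enzyme that activates lysyl oxidase to the matrix. It lies on chromosome 3 of GRCm38 from 54361109 to 54391037. It had 30.4, 32.6 and 37.9 CPM in senescent iMEFs, against 432, 421 and 423 CPM in control iMEFs. The control cultures differed by little, with a coefficient of variation of 1.43%, and the senescent cultures stood at 0.0715 to 0.0891 of their mean. The log2 fold change was -3.66 (standard error 0.10), a level 12.6-fold lower in senescent iMEFs, and *Postn* ranked 13 from the lowest of all 13561 genes.

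*Abi3bp* and *Fndc1* encode secreted proteins with fibronectin type III repeats. *Abi3bp*, on chromosome 16 from 56477878 to 56690135, had 24.9, 23.0 and 23.6 CPM in senescent iMEFs, against 190, 194 and 203 CPM in control iMEFs. The senescent cultures were the most alike for this gene of all the members (coefficient of variation 4.16%), and the log2 fold change was -3.03 (standard error 0.08). *Fndc1*, on chromosome 17 from 7738569 to 7827302, was scarce. It had 0, 1 and 0 reads in the senescent libraries, against 45, 28 and 25 reads in the control libraries. The summed reads were 1 and 98. Their ratio after scaling to library size was 0.0111, with a 95% exact counting interval of 0.000278 to 0.0632 that covers counting error only. The fitted log2 fold change of -3.84 (standard error 0.78) depends on the prior count.

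*Lrrc17* encodes a secreted leucine-rich repeat protein that restrains osteoclast formation in mice. It lies on chromosome 5 from 21543559 to 21575904. It had 7.84, 10.7 and 10.1 CPM in senescent iMEFs, against 107, 118 and 122 CPM in control iMEFs, and its log2 fold change of -3.59 (standard error 0.12) put it next to *Postn*, at rank 14. It shares 161 exon bases with *Fbxl13* on the opposite strand, and reads there cannot be told apart because the sources used here do not give the strand setting of the counting. The same holds for 208 exon bases that *Thbs1* shares with *Gm29233* and 176 that *Tnc* shares with *8030451A03Rik*.

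*Ptn* and *Mdk*, for pleiotrophin and midkine, are the heparin-binding growth factors of the set. They make up a family of their own and share receptors such as ALK, LRP1, syndecans and PTPRZ1. *Ptn*, on chromosome 6 from 36714929 to 36810220, had 99.5, 107 and 127 CPM in senescent iMEFs, against 529, 542 and 504 CPM in control iMEFs, a log2 fold change of -2.24 (standard error 0.10). *Mdk*, on chromosome 2 from 91929805 to 91932297, had 12.5, 12.3 and 17.3 CPM in senescent iMEFs, against 28.9, 28.8 and 22.8 CPM in control iMEFs, a log2 fold change of -0.93 (standard error 0.15). Both were lower in every senescent culture, by 4.73-fold for *Ptn* and 1.91-fold for *Mdk*. Per kb of exon, *Ptn* remained the more plentiful, at 32.3 ± 4.10 CPM per kb in senescent iMEFs and 153 ± 5.64 in control iMEFs, where *Mdk* had 10.6 ± 2.16 and 20.3 ± 2.63 CPM per kb (SD, n = 3 each).

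*Sparc*, which encodes the collagen-binding protein also called osteonectin, had the highest level per kb of the set in all 4 conditions. It lies on chromosome 11 from 55394500 to 55423183. It had 894, 912 and 1249 CPM in senescent iMEFs, against 2218, 2330 and 2220 CPM in control iMEFs. Its log2 fold change was -1.15 (standard error 0.13), with the third senescent culture at 0.554 of the control mean and the other 2 at 0.396 and 0.404. *Sparc* made up 37.2% to 38.7% of the members' summed CPM in senescent iMEFs and 38.3% to 41.0% in control iMEFs.

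The thrombospondins and tenascin-C are large multimeric proteins that loosen cell adhesion. *Thbs1*, whose product binds CD47 and can activate latent TGF-beta, lies on chromosome 2 from 118111876 to 118127133 and had 676, 695 and 1112 CPM in senescent iMEFs, against 1300, 1247 and 1446 CPM in control iMEFs. *Thbs2*, a close relative that binds CD47 too, lies on chromosome 17 from 14665500 to 14694235 and had 114, 111 and 165 CPM in senescent iMEFs, against 200.1, 203 and 212 CPM in control iMEFs. Their log2 fold changes were -0.69 (standard error 0.16) and -0.66 (standard error 0.13). *Tnc*, for tenascin-C, lies on chromosome 4 from 63959785 to 64047015 and had 462, 454 and 611 CPM in senescent iMEFs, against 653, 603 and 635 CPM in control iMEFs. It was the member with the smallest difference, a log2 fold change of -0.31 (standard error 0.11), and senescent replicate 3 lay above the lowest control.

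**Figure D2:**
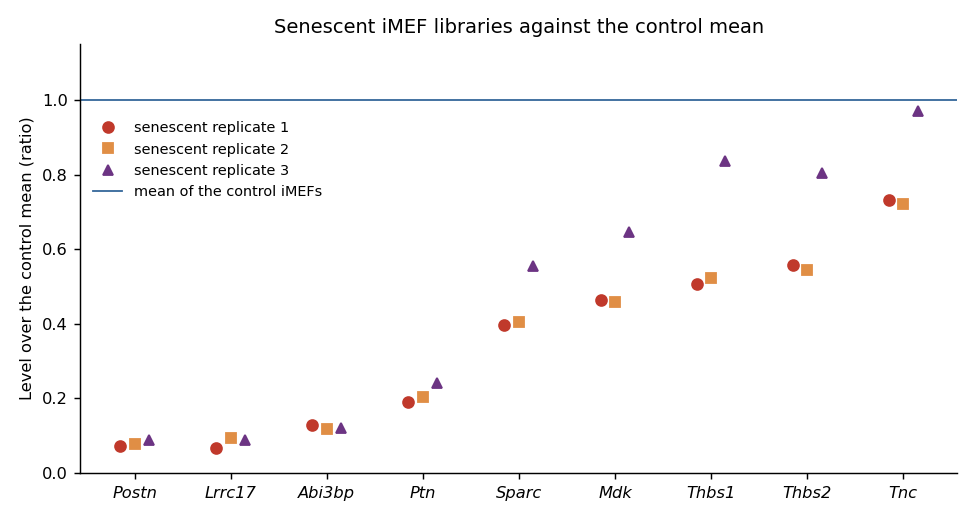
Level in each senescent iMEF library divided by the mean of the control iMEFs, for the 9 members other than *Fndc1* (ratio on the vertical axis, 1 is the control mean). Symbols are the 3 senescent libraries, and replicate 3 (triangles) is nearest to the control mean for *Ptn*, *Sparc*, *Mdk*, *Thbs1*, *Thbs2*, *Tnc* and *Postn*.

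The senescent cultures did not agree for every gene. Replicate 3 was the highest senescent library for 7 of the 10 members, as it was for 38.1% of the 2878 genes called lower in senescent iMEFs. For *Thbs1* it stood at 0.836 of the control mean, against 0.508 and 0.522 in the other senescent libraries, and for *Tnc* at 0.970 against 0.732 and 0.720. For *Abi3bp* the 3 ratios were 0.127, 0.118 and 0.121. Without senescent replicate 3 the log2 fold changes were -0.94 for *Thbs1*, -0.85 for *Thbs2*, -0.45 for *Tnc*, -1.31 for *Sparc*, -1.10 for *Mdk* and -2.33 for *Ptn*, and those of *Postn*, *Abi3bp* and *Lrrc17* were -3.74, -3.01 and -3.62. Why this library stood apart was not tested.

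The order of the levels differed between the conditions. Per kb of exon, senescent iMEFs had *Sparc* at 269 ± 52.8 CPM per kb, then *Thbs1*, *Tnc*, *Ptn*, *Thbs2*, *Mdk*, *Postn*, *Abi3bp* and *Lrrc17*, with *Fndc1* last (SD, n = 3). No neighbours in that order overlapped in range. Control iMEFs had *Sparc* at 596 ± 16.9 CPM per kb, then *Thbs1*, *Ptn*, *Tnc*, *Postn*, *Lrrc17*, *Thbs2*, *Abi3bp* and *Mdk*, with *Fndc1* last (SD, n = 3), and only *Lrrc17* and *Thbs2* overlapped. *Postn* stood at 3.87 CPM per kb in senescent iMEFs, below *Mdk*, and at 48.9 CPM per kb in control iMEFs, above *Mdk*. In *Trf2*-deleted livers the order was *Sparc*, *Postn*, *Abi3bp*, *Thbs2*, *Mdk*, *Thbs1*, *Tnc*, *Lrrc17*, *Ptn* and *Fndc1*, and the control livers had the same order except that *Fndc1* came before *Ptn*. *Sparc* had 17.6 ± 0.188 CPM per kb in *Trf2*-deleted livers and 16.3 ± 2.0 in control livers (SD, n = 4 each), and from *Thbs2* downward most neighbours in the livers overlapped in range.

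Together the members took up 0.239% to 0.335% of the reads in senescent iMEF libraries and 0.557% to 0.569% in control iMEF libraries. In livers they were scarce, at 0.00898% to 0.0100% of the reads in *Trf2*-deleted livers and 0.00765% to 0.0103% in control livers. Control iMEFs had 36.5-fold more *Sparc* and 36.9-fold more *Postn* by CPM than control livers, and 941-fold more *Thbs1* and 971-fold more *Tnc*. These ratios set libraries of 2 separately scaled experiments side by side and are given with no test.

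In the livers the question was whether the same genes differed when *Trf2* was deleted in hepatocytes. None was called in edgeR's test. Of the 10 members, 6 passed the filter on low counts and 0 passed an adjusted p of 0.05, where 0.343% of all 14270 tested genes did (49 genes). DESeq2 and limma-voom also called 0. At an unadjusted p under 0.05 there were 2 members, *Postn* and *Tnc*, and 7.54% of all tested genes. The groups did not overlap for 1 tested member, *Postn*, as for 4.51% of all tested genes. The 6 tested members had a median log2 fold change of 0.08, against -0.00400 for all genes.

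**Figure D3:**
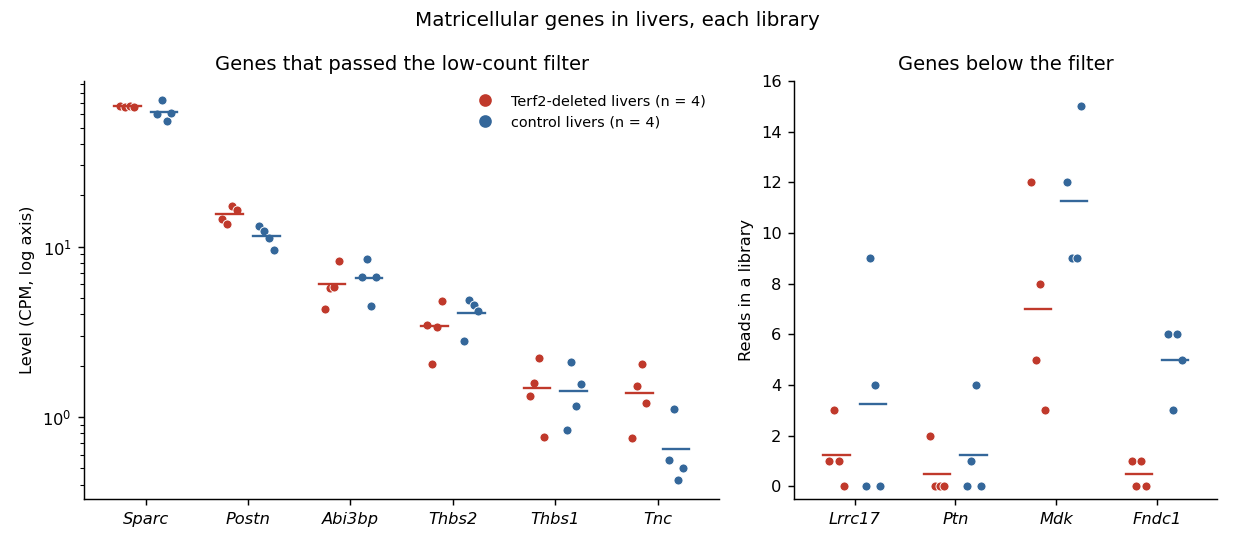
Level of each member in every liver library, in CPM on a log axis for the 6 members that passed the filter and in reads per library for the 4 that did not. Red points are *Trf2*-deleted livers, blue points control livers (n = 4 each), and lines are means. The groups do not overlap for *Postn* and *Fndc1* and do for the other 8.

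*Postn* had 14.5, 13.5, 17.4 and 16.4 CPM in *Trf2*-deleted livers, against 13.2, 12.3, 11.2 and 9.55 CPM in control livers. All 4 deleted livers lay above all 4 controls, by a small margin between 13.5 and 13.2 CPM. The log2 fold change was 0.42 (standard error 0.14, 95% confidence interval 0.12 to 0.71), with an unadjusted p of 0.00931 and an adjusted p of 0.466 in edgeR's test over all genes, and so *Postn* did not pass. Over the alternatives the log2 fold change was 0.34 to 0.49. The hepatic stellate cell markers, of which 0 of 10 tested were called, summed to 460.2 to 514 CPM in *Trf2*-deleted livers and 371 to 469.6 CPM in control livers, and the 8 endothelial markers, with 0 called, to 293 to 352 CPM in *Trf2*-deleted livers and 257 to 293 CPM in control livers. The median log2 fold changes of these lists were 0.18 and 0.19. The portal fibroblast and mesothelium list had a median of -0.44, and the fibroblast list one of -0.04, with 0 called in either. Portal fibroblast and mesothelium markers summed to 16.5 to 26.5 CPM in *Trf2*-deleted livers and 16.7 to 33.8 CPM in control livers. The part of any of these cells in the *Postn* values was not tested.

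*Tnc* had few reads in livers. It had 13, 23, 32 and 19 reads in *Trf2*-deleted livers, against 10, 19, 7 and 9 reads in control livers, which is 0.752 to 2.04 CPM and 0.426 to 1.11 CPM. All deleted livers were above the control mean, and the groups overlapped. The log2 fold change was 0.96 (standard error 0.44, 95% confidence interval -0.00458 to 1.92). The unadjusted p was 0.0307 and the adjusted p 0.597 in edgeR's test. The interval is centred on a fold change shrunk by the prior count, and the test is not, so the 2 can disagree at low counts. Without control liver replicate 2, the control with the most reads, the log2 fold change was 1.28 (adjusted p = 0.531 in edgeR's test). Without *Trf2*-deleted replicate 3 it was 0.73.

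*Sparc* was even across the *Trf2*-deleted livers, at 67.0, 66.4, 67.2 and 65.6 CPM, against 59.7, 72.5, 54.6 and 60.7 CPM in control livers. The deleted livers all lay inside the range of the controls. The log2 fold change was 0.10 (standard error 0.09, 95% confidence interval -0.10 to 0.31, adjusted p = 0.847 in edgeR's test). That interval leaves room for values down to -0.10 and up to 0.31. Without control liver replicate 2, the highest control, the log2 fold change was 0.19 (adjusted p = 0.834 in edgeR's test). *Sparc* gave 67.5% to 72.8% of the members' summed CPM in *Trf2*-deleted livers and 70.2% to 72.1% in control livers.

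The other tested members had wider intervals. *Abi3bp* had 4.28, 5.68, 5.80 and 8.27 CPM in *Trf2*-deleted livers, against 6.63, 8.44, 4.50 and 6.60 CPM in control livers, a log2 fold change of -0.12 with a 95% confidence interval of -0.64 to 0.40. *Thbs2* had 3.47, 2.05, 3.38 and 4.80 CPM in *Trf2*-deleted livers, against 2.79, 4.87, 4.56 and 4.16 CPM in control livers, a log2 fold change of -0.25 with an interval of -0.86 to 0.36. *Thbs1* had 1.33, 1.59, 2.23 and 0.758 CPM in *Trf2*-deleted livers, against 0.836, 2.11, 1.16 and 1.55 CPM in control livers, a log2 fold change of 0.06 with an interval of -0.82 to 0.93. All 3 overlapped between the groups, with adjusted p of 0.946, 0.882 and 0.989 in edgeR's test. Control liver replicate 2 was the highest control for all 3, and it was the highest control for the portal fibroblast and mesothelium markers as well, whose sums were 16.5 to 26.5 CPM in *Trf2*-deleted livers and 16.7 to 33.8 CPM in control livers, with 0 of 6 tested called. Without it the log2 fold changes were 0.02 for *Abi3bp*, -0.15 for *Thbs2* and 0.30 for *Thbs1*, and the part of these cells was not tested.

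The 4 members below the filter had too few reads for the fit. *Fndc1* had 1, 0, 1 and 0 reads in *Trf2*-deleted livers, against 6, 3, 6 and 5 reads in control livers. The groups did not overlap. The summed reads were 2 and 20, and their ratio after scaling to library size was 0.109 with a 95% exact counting interval of 0.0123 to 0.447. A two-sided exact permutation test of the CPM gave p = 0.0286, the smallest that 70 regroupings of 4 against 4 livers can give, and in edgeR's fit without the filter the adjusted p over all genes was 0.631. *Mdk* had 12, 5, 8 and 3 reads in *Trf2*-deleted livers, against 12, 9, 9 and 15 reads in control livers, with a ratio of the summed reads, scaled to library size, of 0.676, interval 0.406 to 1.11 (exact permutation p = 0.171). *Lrrc17* had 5 reads in all in the *Trf2*-deleted livers and 13 in the controls, and *Ptn* had 2 and 5, with exact permutation p of 0.629 and 0.714. No difference in *Ptn* or *Lrrc17*, which were among the lowest relative to controls in senescent iMEFs, was detectable at this depth. These 4 permutation tests are all that were made, and the counting intervals cover counting error only.

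**Figure D4:**
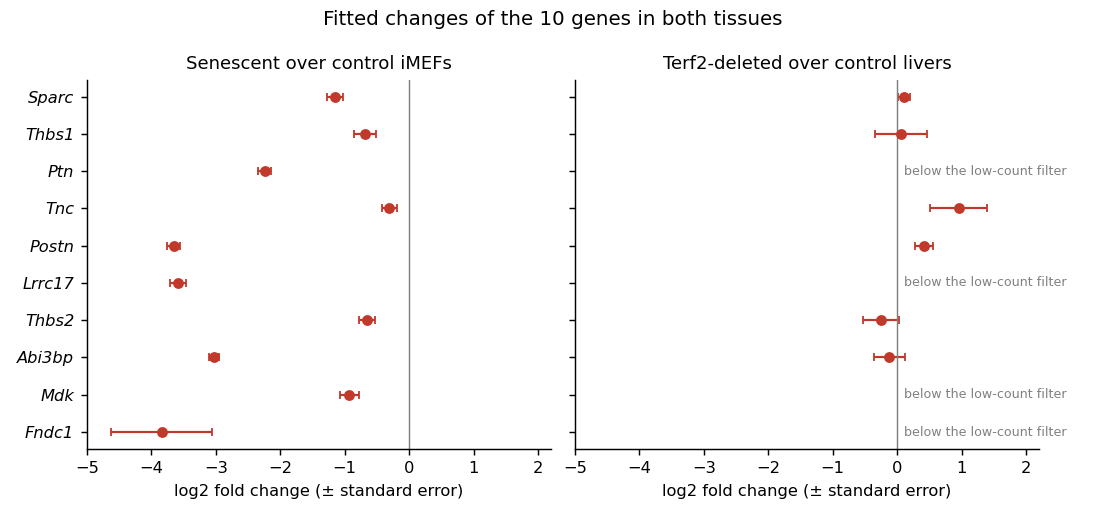
Log2 fold changes of the 10 members with standard errors, senescent over control iMEFs at the left and *Trf2*-deleted over control livers at the right, on the same axis. In iMEFs all points lie left of 0. In livers the 6 tested members lie between -0.25 and 0.96, and 4 were below the low-count filter.

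Side by side, *Postn* had a log2 fold change of 0.42 in livers and -3.66 in iMEFs, *Abi3bp* of -0.12 and -3.03, *Sparc* of 0.10 and -1.15, *Thbs1* of 0.06 and -0.69, *Thbs2* of -0.25 and -0.66, and *Tnc* of 0.96 and -0.31. The difference between the tissues was not tested, since it contains the contrast by which members were picked.

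The other matricellular genes were mixed in senescent iMEFs. Of 25 listed, 18 were tested, 5 rose and 7 fell, 6 did not pass, and their median log2 fold change was -0.53. The share called was 66.7%, where 39.8% of all tested genes were called. The gene lists here and below were chosen with earlier results of these data known. Their shares called are therefore a description and no test of the lists. *Ccn5*, a growth-restraining member of the CCN family, averaged 20.8 CPM in senescent iMEFs and 103 CPM in control iMEFs (log2 fold change -2.31, adjusted p = 8.34e-09), and *Tgfbi*, a relative of periostin, fell by 1.87, *Thbs4* by 1.57 and *Ccn4* by 1.16 on the log2 scale. *Ccn2*, the connective tissue growth factor, rose to 418 CPM, against 162 CPM in control iMEFs (log2 fold change 1.37, adjusted p = 4.55e-05), and without senescent replicate 3, its highest library, the log2 fold change was 1.10. *Ccn3*, *Smoc1*, *Spock2* and *Tnxb* rose by 1.02, 1.25, 0.84 and 0.80 on the log2 scale. Adjusted p of all 9 genes were at most 0.0241 in edgeR's quasi-likelihood test. *Spock2* lost its call in 5 of 11 alternatives, which were DESeq2, the replicate block and the fits without control replicate 1, control replicate 3 or senescent replicate 1. *Tnxb* lost its call in 3 of them, without control replicate 2, control replicate 3 or senescent replicate 1.

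Nearly all of the matrix partners fell in senescent iMEFs. These are the collagens, fibronectin and enzymes that members bind or bring together. Of 11 genes 10 fell in senescent iMEFs and 1 rose, with a median log2 fold change of -1.08. Among all tested genes 39.8% were called in either direction and 21.2% were called lower. Since this list too was chosen with earlier results known, nothing is read from its share. *Col3a1*, *Col1a2*, *Col1a1* and *Col6a1*, all fibrillar or beaded-filament collagen chains, fell by 2.87, 2.05, 2.01 and 1.71 on the log2 scale (adjusted p at most 7.94e-07 in edgeR's test). *Dcn*, for decorin, a small proteoglycan that binds collagen and TGF-beta, rose by 1.10 (adjusted p = 0.000377 in edgeR's test), at 22.2 CPM in senescent iMEFs and 10.3 CPM in control iMEFs. All 11 were called also without senescent replicate 3. Their summed level was 7639 to 10756 CPM in senescent iMEFs (at most 8012 without replicate 3) and 22633 to 24673 CPM in control iMEFs.

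Of the receptors of the members, 15 of 20 were tested in iMEFs, 1 rose, 5 fell and 9 did not pass, with a median of -0.19. This share called, 6 of 15, was close to the 39.8% of all tested genes. Without senescent replicate 3 it was 9 of 15, where 5907 of all 13823 genes fitted were called. *Lrp1*, a receptor for midkine, pleiotrophin and thrombospondins, and *Cd47*, a thrombospondin receptor, fell by 1.19 and 0.86 on the log2 scale. *Ptprb* was in the list, but no member that binds its product is named here. It was scarce and fell by 2.08, with 1.01 CPM in senescent iMEFs and 4.64 CPM in control iMEFs. *Ncl*, for nucleolin, a nucleolar protein that can also bind midkine at the cell surface, rose by 0.75. Adjusted p of these genes were at most 3.68e-05 in edgeR's test. Of 12 genes of TGF-beta ligands, receptors and SMADs, a pathway known to induce several members in fibroblasts, 2 rose and 5 fell in iMEFs, with a median of -0.06, and 58.3% were called against 39.8% of all tested genes. The replicate block left 5 called. *Tgfb2*, *Tgfb3* and *Tgfbr2* fell by 1.56, 1.54 and 1.05 on the log2 scale, and *Smad7*, an inhibitor of the pathway, and *Ltbp1*, which stores latent TGF-beta, rose by 0.50 and 0.38 (adjusted p at most 0.0205 in edgeR's test). *Ltbp1* lost its call when any 1 control was left out, and it was 0.23 without senescent replicate 3.

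**Figure D5:**
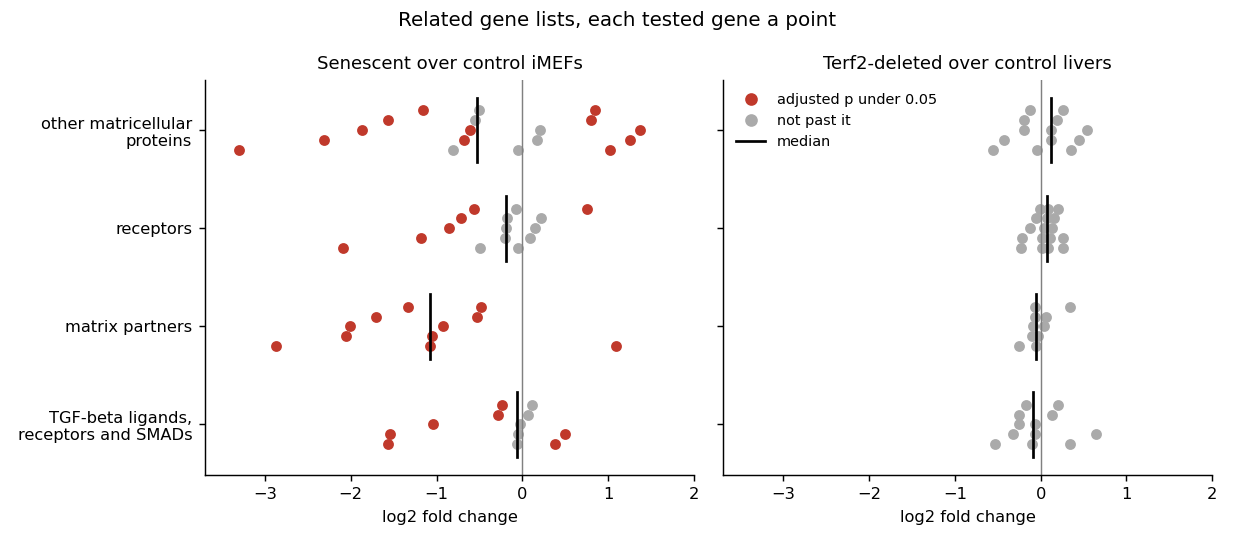
Log2 fold changes of the tested genes of the 4 related lists, senescent over control iMEFs at the left and *Trf2*-deleted over control livers at the right. Each point is a gene, red where the adjusted p was under 0.05, and black bars are medians. In iMEFs 10 of 11 matrix partners are red at the left of 0, and in livers no point is red.

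In livers 0 genes of the 4 lists were called in edgeR's test, among 13 other matricellular genes, 17 receptors, 10 matrix partners and 12 TGF-beta genes tested. Their median log2 fold changes were 0.12, 0.08, -0.06 and -0.09. At an unadjusted p under 0.05 there were 2, 1, 1 and 3 genes in these lists, and 7.54% of all genes tested in livers. limma-voom called 0, and DESeq2 called 1, *Dcn*. In edgeR's test *Dcn* had a log2 fold change of 0.34 (adjusted p = 0.230), at 201 CPM in *Trf2*-deleted livers and 158 CPM in control livers. The smallest p-values of the other lists belonged to *Spp1* (osteopontin), *Cd47* and *Tgfbr2*, with log2 fold changes of 0.54, -0.22 and 0.34 and adjusted p of 0.614, 0.471 and 0.479 in edgeR's test.

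Fibroblast markers in iMEFs moved as well: 7 of 10 were called lower and 0 higher, where 21.2% of all tested genes were called lower. Their sum was 6316 to 7251 CPM in senescent iMEFs and 14936 to 15853 CPM in control iMEFs. *Col1a1* and *Col1a2* are in this list and among the matrix partners. No fibroblast marker was at 0. In livers 0 of 8 tested fibroblast markers and 0 of 7 tested macrophage and leukocyte markers were called, and the fibroblast sums were 71.4 to 94.98 CPM in *Trf2*-deleted livers and 70.5 to 111 CPM in control livers. At an unadjusted p under 0.05 livers had 0 fibroblast, 2 stellate cell and 1 endothelial markers. The portal fibroblast and mesothelium list had 1, as did the macrophage and leukocyte list. That threshold was met by 7.54% of all genes tested in livers. DESeq2 and limma-voom called 0 in these lists. The epithelial list was the one marker list with a call in livers. Of its 4 tested genes 1 was called lower and 3 did not pass. The called gene was *Cdh1*, for E-cadherin (log2 fold change -1.18, adjusted p = 0.00542 in edgeR's test). It had 28.1 ± 5.70 CPM in *Trf2*-deleted livers and 63.7 ± 11.8 CPM in control livers (SD, n = 4 each). DESeq2 and limma-voom also called 1 gene of that list. Taken over the 4 tested genes, the median difference was 0.0372 on the log2 scale. The epithelial sums overlapped, at 457 to 638 CPM in *Trf2*-deleted livers and 514 to 634 CPM in control livers.

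The genes most like each member over the 14 libraries were found by the root mean square difference of log2 CPM, centred within each tissue, over 10815 genes with at least 1 CPM in both tissues. *Cxcl14*, a chemokine, was nearest to *Postn* at 0.235, with a log2 fold change of -3.26 in iMEFs, and *Pde9a* followed at 0.353. *Col3a1* and *Nrep* were nearest to *Abi3bp* (0.245 and 0.281), and *Igsf10* and *Spon2* to *Lrrc17* (0.616 and 0.673). *Sparc* had the closest neighbours of all members, *Col5a1* and *Col4a1*, collagen chains that differed from it by 0.112 and 0.118. *Lbp* and *Il1rn* were nearest to *Ptn*, *Vcl* and *Sema3f* to *Mdk*, *Ptk7* and *Ppic* to *Thbs1*, *Mn1* and *Cacna2d1* to *Thbs2*, and *Ncapg2* and *Sntb2* to *Tnc*, at 0.206 to 0.351. *Fndc1* was too scarce for this comparison. For *Ptn*, *Lrrc17* and *Mdk*, which were below the low-count filter in livers, the liver part of the profile rests on few reads. The profiles contain the iMEF contrast by which several members were picked, and counting noise adds to the distance of scarce genes. Likeness here is therefore a description, and shared control of these genes was not tested.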

How the data were processed

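The authors deposited raw counts of reads per gene, whole numbers for 54532 genes in 1 table per tissue. Novogene prepared, sequenced and aligned the libraries, and the submitters' notes name mm10, STAR and featureCounts without versions. The sources used here give neither the annotation release nor the strand setting. The deposited normalized tables were not used. Low-count genes were removed with filterByExpr, which left 13561 genes in iMEFs and 14270 in livers. Separate fits per tissue used edgeR 4.0.16 (R 4.3.3), TMM factors, the quasi-likelihood test and Benjamini-Hochberg adjustment over all tested genes at 0.05. Log2 fold changes used a prior count of 2. Standard errors came from the coefficients without it, and the intervals were centred on the values with it. Levels are TMM-scaled CPM, and levels of different genes were compared per kb of union exon length of GENCODE M21. P-values measure the spread between the samples, which the methods call biological replicates. Libraries held 15364450 to 20177401 reads in genes, which limits the precision of genes with few reads. Coordinates are those of GRCm38 (the build of mm10).

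The members and the gene lists were chosen with earlier results of these data known. The named genes are the 10 members, from each related list up to 4 genes with the smallest p in each tissue and any gene called against most of its list, the 2 genes most similar to each member that averaged 1 CPM or more, and *Terf2* and *Cdkn1a*. Of these, a few list genes are given by counts only. Of the listed genes, 6 appear in the tables under older symbols. The alternatives tried were limma-voom (limma 3.58.1), DESeq2 1.42.0, a fit of all genes with a read, RLE factors, the replicate number as a block, leaving out each library, and levels without TMM factors. The edgeR fit was tested on simulated data. Tables and figures were made with Python 3.11.15, pandas 2.3.3, numpy 2.4.6, scipy 1.17.1 and matplotlib 3.10.9.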

Additional observations from a re-analysis of the deposited data

Results flagged for a closer look

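*Postn*, *Sparc* and *Tnc* lay on opposite sides of the controls in the 2 tissues. All 3 senescent iMEF libraries were below the mean of the control iMEFs for each of these genes, and all 4 *Trf2*-deleted livers were above the mean of the control livers. The log2 fold changes in livers were 0.42, 0.10 and 0.96, and those in iMEFs were -3.66, -1.15 and -0.31. The difference between the tissues was not tested, and none of the liver values passed the adjusted threshold. Among the 20 groups of 4 livers, 1 had a library far from the others. It was *Ptn* in the *Trf2*-deleted livers, where 1 library held 2 reads and the other 3 held 0, so that the gap was the whole range (a ratio of 1 by Dixon's test). Chance alone flags about 1 group in 20 where values are continuous. With reads in only 1 library the ratio is 1 at any count, so nothing is read from this flag.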

How the results depend on the processing

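In livers no alternative called a member, and the lowest adjusted p of a member over the 78 values computed was 0.373, with DESeq2. The number of genes called in livers was 49, and it was 136 with DESeq2 and 130 without the filter on low counts, which tested 26447 genes. DESeq2 called 1 matrix partner, *Dcn*. Leaving out 1 library at a time gave 35 to 58 called genes in livers. *Thbs1* in livers turned to -0.12 without control replicate 1, -0.02 without control replicate 3 and -0.19 without *Trf2*-deleted replicate 3, and *Abi3bp* to 0.023 without control replicate 2 and 0.01 without *Trf2*-deleted replicate 1. With 1 library left out at a time, *Thbs1* lay between -0.19 and 0.30 and *Abi3bp* between -0.31 and 0.023. In iMEFs all 110 alternative values of the members were below 0. Only *Fndc1* moved by more than the spread between replicates, to -6.40 with DESeq2 and -5.35 with limma-voom. Without 1 library the genes called in iMEFs numbered 3792 to 5907, the TGF-beta genes called 4 to 6 against 7, the other matricellular genes 10 to 15, the receptors 6 to 9 and the matrix partners 9 to 11. Without TMM factors 1 of 40 levels per kb moved by more than its SD, *Postn* in control iMEFs at 48.0. The replicate number as a block gave 4696 called genes in iMEFs and 42 in livers, and 0 members in livers. Same-numbered samples deviated together by correlations of -0.171 to -0.00529 in iMEFs and -0.0831 to 0.237 in livers. Differently numbered samples did so by -0.134 to 0.163 in iMEFs and -0.129 to 0.0831 in livers. The value of 0.237 was that of liver replicate 4 and lay above all differently numbered liver pairs. Whether same-numbered samples shared a batch was not tested. The depth of 15364450 reads or more left 4 members below the low-count filter in livers, at 2 to 45 reads summed over a group, and the small groups leave room for changes inside the intervals given.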
